A study of Mus musculus with 6 samples.

Results

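A set of 8 hormone-like genes of the liver known to respond to fasting, Fgf21, Angptl4, Angptl8, Igfbp1, Igfbp2, Igfbp4, Gdf15 and Enho, were followed through RNA sequencing of regenerating mouse liver. They were picked by name from the 34745 genes of the deposited table. Of them, 7 were found under the listed name, and Angptl8 was found by its identifier, since the table lists it under the older name Gm6484. The series holds 6 libraries of C57BL/6 mice aged 12 weeks, all taken 48 h after partial hepatectomy (PHx), in which lobes are cut away and the remnant regrows. Of these, 3 are labelled Sox9HKO (HKO below) and 3 are Sox9f/f controls (WT below), which carry the floxed Sox9 alleles. The labels give liver as the tissue and hepatocyte as the cell type. The Cre line or vector behind HKO, the feeding state and the hour of collection are not given in the sources used here. No fed or fasted group was measured, so the name of the set rests on what is known of the genes and was not checked against these data. The labels also do not tie libraries to single mice, so p-values measure the spread between libraries, which may be technical.

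Hepatokines are proteins that the liver secretes to act on other tissues or on itself. In a fasted liver, fatty acids activate the nuclear receptor PPAR-alpha and low insulin frees the transcription factor FOXO1, and these raise Fgf21, Angptl4 and Igfbp1, while Angptl8 and Enho are known to be lower in fasting and higher after feeding. FGF21 and GDF15 also rise under cell stress through the transcription factor ATF4, and IGF-binding proteins hold insulin-like growth factors in the circulation and limit or prolong their action.

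The libraries held 16659778 to 21168233 counts. Levels below are TMM-scaled CPM, which set the libraries to a common total, and levels of different genes are compared only as FPKM, which is scaled by gene length too. Sox9, the targeted gene, stood at 6.34, 4.30 and 4.79 CPM in the libraries HKO 1, 2 and 3, against 6.94, 13.7 and 11.4 CPM in WT 1, 2 and 3 (log2 fold change -1.05, edgeR adjusted p = 0.0284). Each HKO value thus lay below each WT value, by little between HKO 1 and WT 1. HKO 2 stood apart: the 13 mitochondrially encoded genes took 25.9% of its counts and 12.1% to 16.3% of those of the other libraries. All 10 hepatocyte markers were detected, and 2 were called higher (Cps1 and Tat) and 1 lower (Fgb), with a median log2 fold change of 0.18. Their sums ran the other way, from 86960 to 91740 CPM in HKO and from 99960 to 125200 CPM in WT, with Alb, which was not called, as the largest part. Markers of other cells were present too, and their part in the results below was not tested. All 10 Kupffer cell and macrophage markers were called higher in HKO, with sums of 245 to 386 CPM against 169 to 177 CPM in WT. Endothelial markers summed to 530 CPM in HKO 2, 181 and 214 CPM in HKO 1 and 3 and 113 to 168 CPM in WT (1 of 10 called higher), and stellate cell and fibroblast markers to 597 CPM in HKO 2, 155 and 168 CPM in HKO 1 and 3 and 90.4 to 138 CPM in WT (3 of 9 tested called higher). The 3 tested B and plasma cell markers were called higher, with list sums of 20.1 to 27.3 CPM against 1.0 to 2.36 CPM. Of 4 tested erythroid markers, the globin genes Hba-a1, Hbb-bs and Hbb-bt were called higher (log2 fold changes 3.80, 2.84 and 5.30), all highest in HKO 2. Hba-a1 stood at 8.84 CPM there, against 1.72 and 1.0 CPM in HKO 1 and 3 and 0.244 to 0.281 CPM in WT. Hbb-bt had 11, 33 and 13 counts in HKO 1, 2 and 3 and 0, 0 and 1 in WT 1, 2 and 3. It passed the filter on low counts only through HKO, and its fold change rests on 1 count in WT. The list sums of 68.6 to 75.1 CPM in HKO and 53.2 to 61.3 CPM in WT were mostly Alas2, which was not called. Bile duct cell markers summed to 11.4 to 18.7 CPM in HKO and 11.5 to 14.4 CPM in WT, with Sctr at 0 in every library. T and NK cell markers summed to at most 0.814 CPM in any library. Adipocyte markers summed to at most 0.161 CPM in any library, with Adipoq, Lep, Retn and Slc7a10 at 0 in all 6. In such bulk RNA, fewer cells of a type and less RNA per cell cannot be told apart.

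Of the 8 hepatokine genes, all 8 passed the filter on low counts. Fgf21, Igfbp1, Igfbp2 and Igfbp4 were higher in HKO, Enho was lower, and Angptl4, Angptl8 and Gdf15 did not pass the test (edgeR quasi-likelihood F-test, Benjamini-Hochberg adjusted p below 0.05 over 12556 genes). Over all genes tested, 23.2% were called, 12.1% higher and 11.2% lower. The same 5 genes were those whose HKO and WT libraries did not overlap, a property held by 44.2% of all genes tested (22.6% higher and 21.6% lower in HKO). The median log2 fold change was 0.64 over the 8 genes and 0.02 over all genes tested.

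**Figure D1:**
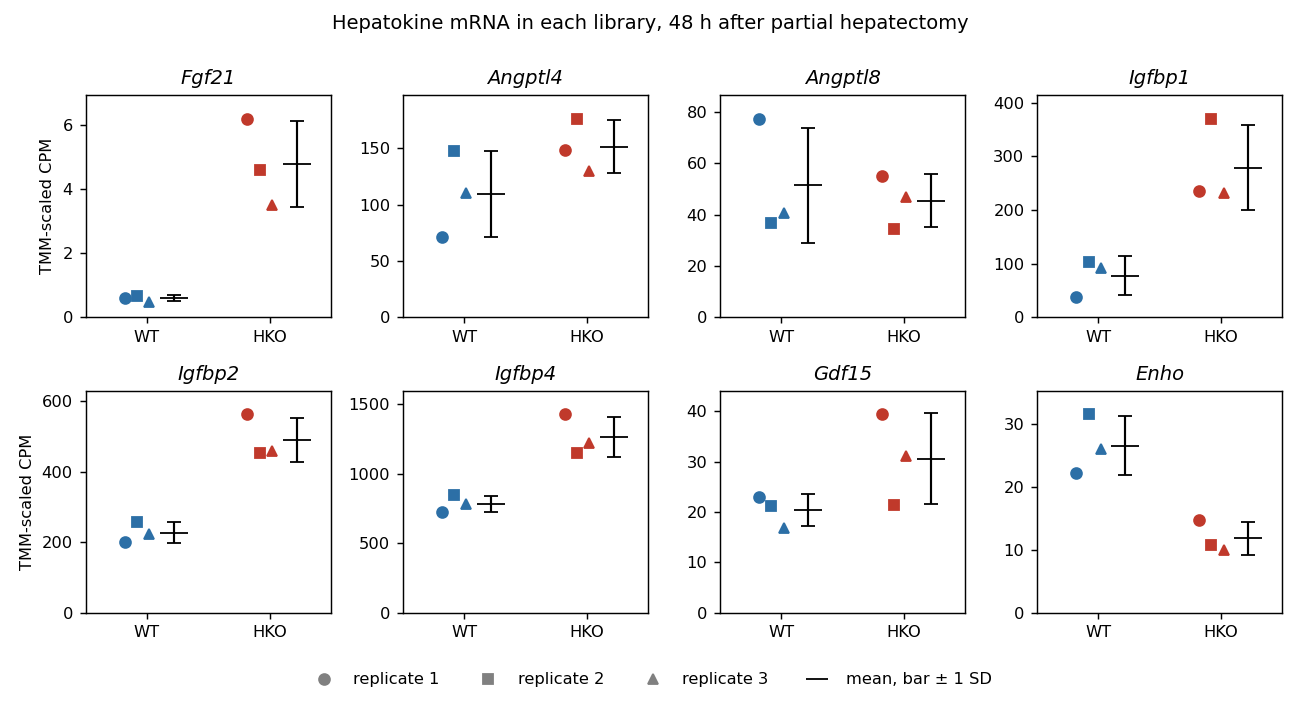
Level of each hepatokine gene in TMM-scaled CPM (vertical axes from 0, a separate scale for each gene) in the 3 WT libraries (blue) and the 3 HKO libraries (red). Symbols mark the replicate number, which pairs no samples, and black marks give the mean with 1 SD. The groups are apart for Fgf21, Igfbp1, Igfbp2, Igfbp4 and Enho and overlap for Angptl4, Angptl8 and Gdf15.

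Fgf21 encodes a circulating hormone of starvation and stress that acts on fat and brain. Fgf21 (ENSMUSG00000030827, GRCm38 chromosome 7, 45613907 to 45615490, minus strand, 3 exons) had 115, 79 and 77 counts in the libraries HKO 1, 2 and 3, against 11, 12 and 8 counts in WT 1, 2 and 3. In scaled levels this was 6.18, 4.59 and 3.51 CPM in HKO, against 0.611, 0.674 and 0.488 CPM in WT. The lowest HKO library was 5.21 times as high as the highest WT library. The HKO libraries averaged 4.76 ± 1.34 CPM and the WT libraries 0.591 ± 0.0946 CPM (SD, n = 3), at a log2 fold change of 2.99 (standard error 0.32, 95% interval 2.25 to 3.73, adjusted p = 0.000967). With one library left out the log2 fold change lay between 2.74 and 3.17. The gene rests on few counts in WT, so its WT level carries the largest counting error of the 8. Of the genes called higher, 36 had a larger log2 fold change.

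The bases before the Fgf21 start site are shown because they hold letters of a stress response element and because Angptl8, which was not called, holds the same element at a like distance. The promoter windows are those of RefSeq on GRCm38.p6, from 250 bases before the start to 50 after it. Of the 8 genes, 6 had a window, and Angptl4 and Enho had none. Capitals mark matches to TGATGNAAN, the composite element of ATF4 and C/EBP factors, and to CACGTG, the E-box. Both strands were searched, and none of these matches overlaps another. The stretches run from 170 to 30 bases before the start, 5′ to 3′ on the gene's strand, at chr7:45615520-45615660 (minus) for Fgf21 and chr9:21835340-21835480 (plus) for Angptl8:
Fgf21: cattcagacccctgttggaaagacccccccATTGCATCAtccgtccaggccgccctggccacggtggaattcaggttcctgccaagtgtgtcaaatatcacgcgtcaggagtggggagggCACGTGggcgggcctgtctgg
Angptl8: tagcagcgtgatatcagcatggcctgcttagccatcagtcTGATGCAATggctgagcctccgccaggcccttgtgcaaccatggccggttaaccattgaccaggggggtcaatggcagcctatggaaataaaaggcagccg
The composite element lies 140 to 132 bases before the start in Fgf21, on the opposite strand, and 130 to 122 bases before it in Angptl8. It was found in 3.95% of all 32851 windows, and CACGTG, also present in the windows of Igfbp2 and Gdf15, in 7.15%. AGGTCA repeated after 1 base, an exact form of the element of PPAR and RXR, was found in 0.0396% of all windows. It was in none of the windows of these genes. At so low a share its absence tells little, and inexact forms were not searched. GTAAACA, a forkhead core (3.65%), and TGACGTCA, the CRE (1.79%), were in none of their windows either. A match is a description of the letters and not evidence of binding.

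Receptors of FGF21 were present in the same libraries. FGF21 signals through FGF receptors joined by the coreceptor beta-Klotho, encoded by Klb. Of the 6 genes of the receptor list 5 were tested, of which 1 was called higher and 1 lower. Over all genes tested the shares were 12.1% higher and 11.2% lower. Klb averaged 28.3 ± 6.73 CPM over the HKO libraries and 26.6 ± 3.64 CPM over the WT libraries, and its log2 fold change of 0.09 (95% interval -0.35 to 0.53, adjusted p = 0.764) changed sign when HKO 3 or WT 3 was left out (-0.06 and -0.02). Fgfr4, whose FPKM in WT was the highest of the list, had a log2 fold change of -0.17 (95% interval -0.44 to 0.09, adjusted p = 0.306). Fgfr1 had one of -0.06 (95% interval -0.60 to 0.47, adjusted p = 0.862), which was 0.13 without WT 2. Fgfr2 rose with a log2 fold change of 0.86 (adjusted p = 0.0180), and Fgfr3 fell with -0.87 (adjusted p = 0.0327). The call of Fgfr2 was lost without HKO 3 or WT 3 (adjusted p = 0.0524 and 0.0505), and that of Fgfr3 without WT 1, WT 2 or WT 3 (adjusted p from 0.0758 to 0.0851).

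Igfbp1, Igfbp2 and Igfbp4, genes of IGF-binding proteins, all rose in HKO, by different amounts. Igfbp1, whose product is the acute, insulin-suppressed binding protein of the liver, lies on chromosome 11 (ENSMUSG00000020429, 7197782 to 7202546, plus strand, 4 exons). It stood at 236, 370 and 231 CPM in the libraries HKO 1, 2 and 3, against 36.7, 104 and 92.3 CPM in WT 1, 2 and 3. HKO 2 was the highest library and WT 1 the lowest, and the groups were apart. Igfbp1 thus rose from 77.5 ± 35.8 to 279 ± 78.8 CPM (SD, n = 3), at a log2 fold change of 1.85 (standard error 0.37, 95% interval 0.99 to 2.71, adjusted p = 0.0115). Without WT 1 it was 1.5 and without HKO 2 it was 1.59, and the call was kept with each library left out.

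The stretch before the Igfbp1 start is shown because it holds the insulin response sequence, through which FOXO factors are known to drive this gene. The capitals mark CAAAACA, the forkhead core searched on both strands. The stretch runs from 130 to 30 bases before the RefSeq start, at chr11:7197657-7197757 (plus strand, GRCm38.p6):
Igfbp1: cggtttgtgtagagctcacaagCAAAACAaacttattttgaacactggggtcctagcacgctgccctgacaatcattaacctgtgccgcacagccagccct
The match lies 108 to 102 bases before the start. CAAAACA was found in 6.28% of all windows and in none of the other windows of these genes.

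Igfbp2 encodes a binding protein that rises with low insulin and in response to leptin. Igfbp2 (ENSMUSG00000039323, chromosome 1, 72824503 to 72852474, plus strand, 5 exons) stood at 562, 452 and 457 CPM in the libraries HKO 1, 2 and 3, against 199, 258 and 223 CPM in WT 1, 2 and 3. The groups were apart, with the lowest HKO library 1.76 times as high as the highest WT library. It rose from 227 ± 29.3 to 491 ± 61.9 CPM (SD, n = 3), a log2 fold change of 1.11 (SE 0.14, 95% interval 0.80 to 1.43, adjusted p = 0.00162).

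Igfbp4 encodes a binding protein that blocks IGF action until the protease PAPP-A cleaves it. Igfbp4 (ENSMUSG00000017493, chromosome 11, 99041244 to 99054392, plus strand, 8 exons) stood at 1427, 1147 and 1222 CPM in the libraries HKO 1, 2 and 3, against 727, 844 and 779 CPM in WT 1, 2 and 3. It varied least among the libraries of each group, with a coefficient of variation of 11.4% in HKO and 7.51% in WT. Igfbp4 rose from 783 ± 58.9 to 1266 ± 145 CPM (SD, n = 3), at a log2 fold change of 0.69 (standard error 0.13, 95% interval 0.40 to 0.99, adjusted p = 0.00827). Its call was lost by a small margin without WT 3 (log2 fold change 0.69, adjusted p = 0.0502).

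**Figure D2:**
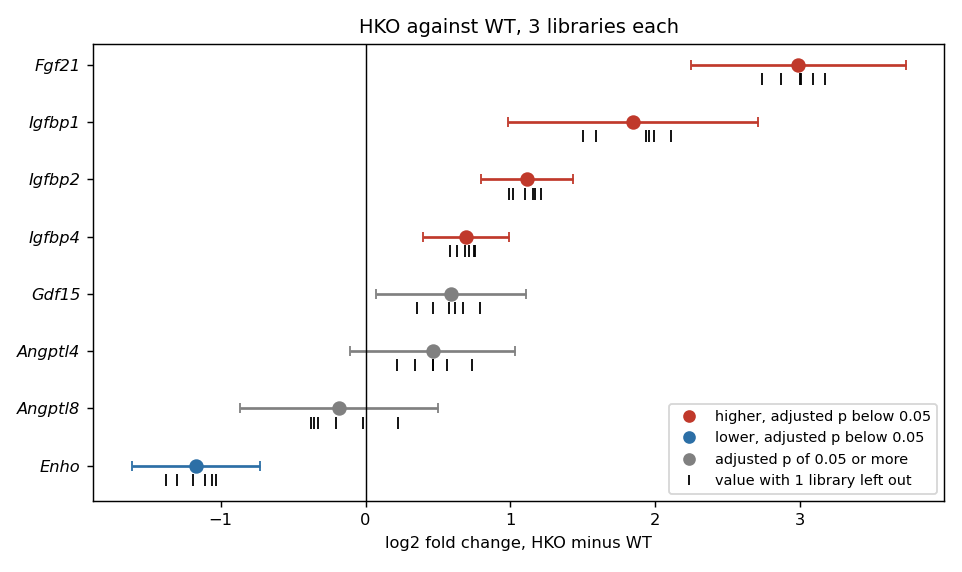
Log2 fold change of each hepatokine gene, HKO minus WT (horizontal axis), with its 95% interval from edgeR (bars) and the values with 1 library left out (black ticks). Fgf21 lies highest at 2.99 and Enho lowest at -1.17, and only the ticks of Angptl8 fall on both sides of 0.

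On a per-length scale these 3 genes made up nearly all mRNA of the 7 IGF-binding protein genes in both groups. The summed FPKM of Igfbp1 to Igfbp7 was 623, 599 and 549 in HKO 1, 2 and 3 and 237, 298 and 274 in WT 1, 2 and 3. The sum was thus 2.19 times as high in HKO, with groups apart (two-sided exact permutation p = 0.1, the smallest that 3 against 3 allows). Igfbp1 took 25.5%, 37.9% and 28.6% of the sum in HKO 1, 2 and 3 and 10.7%, 21.9% and 21.7% in WT 1, 2 and 3. Its share was higher in HKO by 12.6 percentage points (exact permutation p = 0.1), and by 8.95 without HKO 2 and 8.86 without WT 1. Igfbp4 took 35.2% ± 5.11 in HKO and 47.8% ± 4.50 in WT, and Igfbp2 30.9% ± 4.20 and 31.2% ± 1.63 (SD, n = 3; exact permutation p = 0.1 and 0.9). Igfbp4 therefore rose in level while taking a smaller share of the sum.

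**Figure D3:**
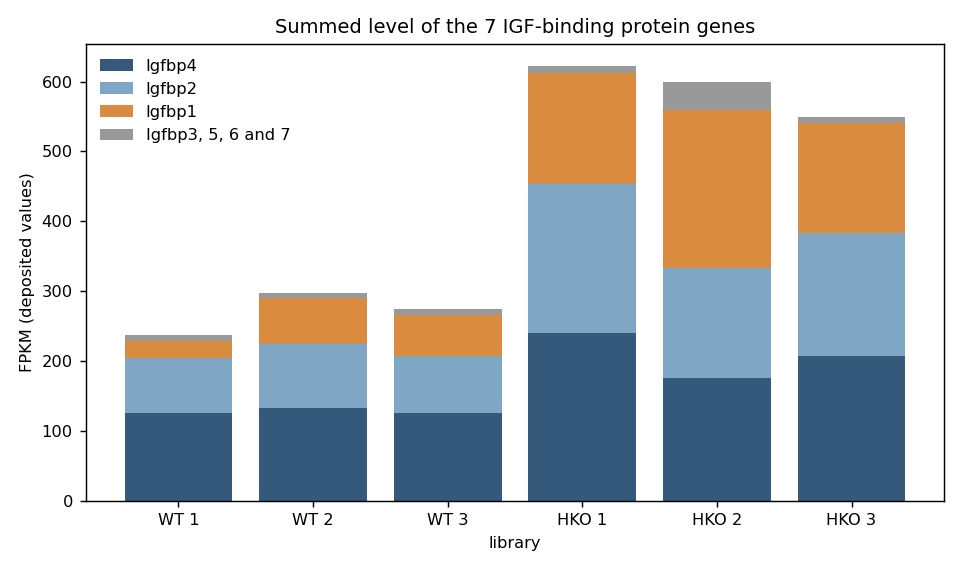
Deposited FPKM of the IGF-binding protein genes (vertical axis, from 0) stacked for each library, with Igfbp3, 5, 6 and 7 added together. The HKO columns reach 549 to 623 and the WT columns 237 to 298, and the share of Igfbp1 is smallest in WT 1.

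In the list of the other genes of the IGF axis, 10 of 17 were tested, of which 2 were called higher and none lower. Over all genes tested, 12.1% were called higher and 11.2% lower. The median log2 fold change of the list was 0.31. None of the list was lower at an unadjusted p below 0.05 either (4 were higher), nor by DESeq2 or limma-voom. The number called higher was 3 by DESeq2, and 1 by limma-voom and without HKO 3, WT 1, WT 2 or WT 3. The 2 were binding protein genes with low mRNA levels in these libraries, Igfbp3 (log2 fold change 2.40, adjusted p = 0.00650) and Igfbp5 (1.74, adjusted p = 0.0356). Igfbp3 stood at 1.40, 2.85 and 1.64 CPM in the libraries HKO 1, 2 and 3, against 0.333, 0.337 and 0.427 CPM in WT. Igfbp5 stood at 9.89 CPM in HKO 2 and 2.69 and 4.28 CPM in HKO 1 and 3, against 1.28 to 1.89 CPM in WT. Both were highest in HKO 2, the library with the highest sums of endothelial and stellate cell markers. Without HKO 2 the log2 fold change of Igfbp5 was 1.06 (adjusted p = 0.0392), and its call was lost without HKO 3 or any WT library (adjusted p from 0.0581 to 0.1) and by limma-voom (adjusted p = 0.0934). Igf1, the growth factor itself, stood at 656, 527 and 729 CPM in the libraries HKO 1, 2 and 3, against 319, 484 and 483 CPM in WT 1, 2 and 3. The groups were apart, but Igf1 did not pass the test (log2 fold change 0.57, 95% interval 0.13 to 1.02, adjusted p = 0.0659). Igfals, whose product holds IGF and binding protein in a stable complex, had a log2 fold change of 0.32 (adjusted p = 0.0590). Without HKO 2 both were called higher (log2 fold changes 0.69 and 0.39, adjusted p = 0.0297 and 0.0322), so that 4 genes of the list were.

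The angiopoietin-like proteins, which hold back lipoprotein lipase and so steer fat between tissues, showed no call for either gene of the set. Angptl4, a PPAR-alpha target that inactivates the lipase, lies on chromosome 17 (ENSMUSG00000002289, 33773750 to 33781575, minus strand, 7 exons). It stood at 148.5, 176 and 130 CPM in the libraries HKO 1, 2 and 3, against 71.2, 148 and 110 CPM in WT 1, 2 and 3. The groups overlapped, since WT 2 lay above HKO 3. The log2 fold change was 0.47 (SE 0.25, 95% interval -0.10 to 1.04, adjusted p = 0.204, exact permutation p = 0.2).

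Angptl8, which insulin induces, lies on chromosome 9 (ENSMUSG00000047822, 21835510 to 21837346, plus strand, 4 exons). It stood at 54.9, 34.4 and 46.8 CPM in the libraries HKO 1, 2 and 3, against 77.3, 36.5 and 40.6 CPM in WT 1, 2 and 3. WT 1 was the highest library and the other values lay within one range. The log2 fold change was -0.18 (SE 0.30, 95% interval -0.87 to 0.50, adjusted p = 0.692, exact permutation p = 0.8), and it was 0.23 without WT 1. Angptl8 lies within the span of Dock6, on the opposite strand and without shared exons. Dock6 averaged 11.1 ± 3.86 CPM over the HKO libraries and 9.54 ± 2.13 CPM over the WT libraries (SD, n = 3).

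Among 14 tested genes of 16 in the list of other angiopoietin-like genes and lipases, 5 were called higher and 1 lower, with a median log2 fold change of 0.34. Without WT 3 the number higher was 3. The shares over all genes tested were 12.1% higher and 11.2% lower. Pnpla2, the lipase that starts triglyceride breakdown in fat droplets, rose from 31.1 ± 1.58 to 90.1 ± 14.5 CPM (log2 fold change 1.53, adjusted p = 0.000422). Lipg, endothelial lipase, rose with a log2 fold change of 1.67 (adjusted p = 0.00109), and Pcsk6, a convertase that cleaves lipases and angiopoietin-like proteins, with 0.78 (adjusted p = 0.00239). Gpihbp1, which anchors lipoprotein lipase on capillary endothelium, rose with 1.77 (adjusted p = 0.0240). It stood at 21.8 CPM in HKO 2 and 10.5 and 7.93 CPM in HKO 1 and 3, and it was no longer called without WT 1 (adjusted p = 0.0618) or WT 3 (adjusted p = 0.0768). Lpl, the lipase that ANGPTL4 inhibits, stood at 11.4, 23.0 and 9.93 CPM in the libraries HKO 1, 2 and 3, against 86.4, 22.9 and 39.0 CPM in WT 1, 2 and 3. It fell at a log2 fold change of -1.75 (standard error 0.51, adjusted p = 0.0421), although HKO 2 and WT 2 overlapped. This call was lost without HKO 1, HKO 3, WT 1 or WT 3 (adjusted p from 0.0844 to 0.118), by limma-voom (adjusted p = 0.0504) and in the fit with replicate numbers as a block (adjusted p = 0.0758), and without WT 1 the log2 fold change was -1.08.

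Gdf15 encodes a stress hormone that lowers food intake through the receptor GFRAL of the hindbrain. Gdf15 (ENSMUSG00000038508, chromosome 8, 70629393 to 70632456, minus strand, 3 exons) stood at 39.4, 21.3 and 31.2 CPM in the libraries HKO 1, 2 and 3, against 22.9, 21.3 and 16.8 CPM in WT 1, 2 and 3. HKO 1 and HKO 3 lay above all WT libraries, and HKO 2 lay among them. The log2 fold change of 0.59 (SE 0.22, 95% interval 0.07 to 1.11) did not pass the test (adjusted p = 0.0935, exact permutation p = 0.2). Without HKO 2 the gene was called higher, with a log2 fold change of 0.79 (adjusted p = 0.0122). Gfral and its partner Ret were at 0 in all 6 libraries.

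Enho, which encodes the peptide adropin, was the only one of the 8 genes called lower. Enho (ENSMUSG00000028445, chromosome 4, 41638144 to 41640324, minus strand, 2 exons) stood at 14.7, 10.8 and 9.89 CPM in the libraries HKO 1, 2 and 3, against 22.2, 31.5 and 26.0 CPM in WT 1, 2 and 3. Every HKO value was below every WT value, and the lowest WT library was 1.51 times as high as the highest HKO library. Enho fell from 26.5 ± 4.67 to 11.8 ± 2.58 CPM (SD, n = 3), at a log2 fold change of -1.17 (standard error 0.19, 95% interval -1.61 to -0.73, adjusted p = 0.00505). Exons of Dnaic1, a dynein gene of cilia on the opposite strand, overlap those of Enho by 15 bases, and the library protocol describes no strand marking, so reads of the overlap cannot be told apart. Dnaic1 stood at 0.322, 1.40 and 0.866 CPM in the libraries HKO 1, 2 and 3, against 8.61, 9.38 and 8.97 CPM in WT 1, 2 and 3 (log2 fold change -3.38, adjusted p = 0.00133). The part of Dnaic1 in the Enho result was not tested. Gpr19, proposed as an adropin receptor, averaged 2.72 ± 0.262 CPM over the HKO libraries and 3.47 ± 1.10 CPM over the WT libraries (log2 fold change -0.35, adjusted p = 0.383).

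The order of the 8 genes by FPKM was partly the same in both groups. In WT the mean FPKM was 128 for Igfbp4, 83.9 for Igfbp2, 60.5 for Angptl8, 50.1 for Igfbp1, 20.8 for both Angptl4 and Enho, 6.98 for Gdf15 and 0.636 for Fgf21. From Igfbp2 down to Enho, the ranges of neighbours in this order overlapped between libraries, while Igfbp4 stood above, and Gdf15 and Fgf21 below, without overlap. In HKO the mean FPKM was 208 for Igfbp4, 182 for Igfbp2, 181 for Igfbp1, 52.9 for Angptl8, 28.9 for Angptl4, 10.6 for Gdf15, 9.30 for Enho and 5.12 for Fgf21. There the 3 binding protein genes overlapped with one another, as did Gdf15 and Enho, and the other neighbours did not. By single libraries, Igfbp1 had rank 3 of the 8 in HKO 1, HKO 3, WT 2 and WT 3, and rank 4 in WT 1. It was the highest of the 8 in HKO 2. Its place below Angptl8 in the WT means held in WT 1 only. Fgf21 was the lowest of the 8 in every library.

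Transcription factors and cofactors known to act on these genes differed in part. Of 21 tested regulators of the fasting and stress list 7 were called higher and 1 lower, with a median log2 fold change of 0.24. Without HKO 3 or WT 3 the number higher was 3. The shares over all genes tested were 12.1% higher and 11.2% lower. Foxo1, which drives Igfbp1 when insulin is low, stood at 61.8, 55.9 and 67.7 CPM in the libraries HKO 1, 2 and 3, against 24.4, 32.6 and 33.9 CPM in WT. It rose at a log2 fold change of 1.03 (standard error 0.15, adjusted p = 0.00289). Cebpb, a bZIP factor of gluconeogenesis and the acute phase, rose with a log2 fold change of 1.27 (adjusted p = 0.00474). Creb3l3, a liver factor that acts with PPAR-alpha on Fgf21, rose from 236 ± 10.9 to 371 ± 26.7 CPM (log2 fold change 0.65, adjusted p = 0.00366). The coactivator gene Ppargc1a rose with 0.97 (adjusted p = 0.0195), a call lost without HKO 3 or WT 3 (adjusted p = 0.0626 and 0.0721). Nr3c1, the glucocorticoid receptor gene, fell with -0.49 (adjusted p = 0.0255), a call lost without any one WT library (adjusted p from 0.0564 to 0.0825). Ppara averaged 68.4 ± 21.9 CPM over the HKO libraries and 42.8 ± 9.66 CPM over the WT libraries and did not pass the test (log2 fold change 0.68, adjusted p = 0.0976), but was called higher without HKO 1, by DESeq2 and in the fit with replicate numbers as a block (adjusted p = 0.0287, 0.0383 and 0.0211). Atf4, the stress factor upstream of Fgf21 and Gdf15, had an mRNA log2 fold change of -0.05 (95% interval -0.28 to 0.19, adjusted p = 0.770), and its target Ddit3 one of 0.04 (adjusted p = 0.916). Atf3, another gene of the list, had one of 1.16 (95% interval -0.13 to 2.46, adjusted p = 0.167), with its highest level in HKO 2. An mRNA level does not give the activity of a factor, which was not measured.

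**Figure D4:**
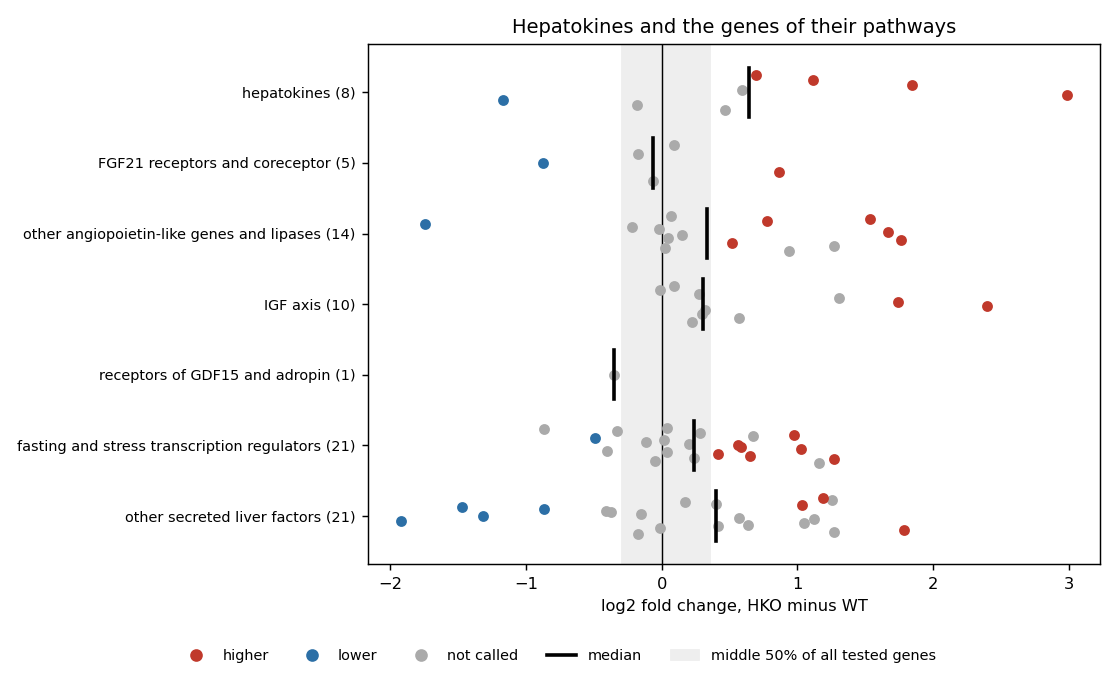
Log2 fold change, HKO minus WT (horizontal axis), of each tested gene of the hepatokine set and of the 6 lists around it, with the number tested in brackets. Colours give the edgeR call, black lines the list medians, and the grey band the middle 50% of all tested genes, from -0.29 to 0.36. The median of the 8 hepatokines, 0.64, lies to the right of the band. The band gives the spread of single genes, so it is no measure of how far a median of 8 may lie.

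For each hepatokine, the genes with the most similar profile over the 6 libraries were taken as those with the smallest root mean square difference in log2(CPM + 0.5), each gene set relative to its WT mean. Among 11294 protein-coding genes, Igsf23 (0.197) and the fatty acid hydroxylase gene Cyp4a31 (0.246) lay nearest to Fgf21. The added 0.5 pulls low genes together, since Igsf23 itself had a log2 fold change of 4.27, and reads of Cyp4a31 are uncertain because of its near-identical relatives. The ceramidase gene Acer2 (0.273) and the bZIP factor gene Maff (0.291) lay nearest to Igfbp1. Acer2 stood at 17.8, 30.8 and 16.4 CPM in the libraries HKO 1, 2 and 3, against 4.0, 8.03 and 7.57 CPM in WT, with its highest value in HKO 2 and its lowest in WT 1, as for Igfbp1. Slc41a3 (0.0862) and the galactokinase gene Galk1 (0.0888) were nearest to Igfbp2, and the copper chaperone gene Ccs (0.0238) and Fam214b (0.0429) to Igfbp4. For Angptl4 they were the cytokine receptor gene Il6st (0.117) and Abca9 (0.135), and for Angptl8 the carboxylesterase gene Ces2a (0.128) and Prss53 (0.132). Ugt1a6a (0.0909), which shares exons with its gene cluster, and Ifi205 (0.0944) were nearest to Gdf15, and Tnfaip2 (0.136) and Serpina10 (0.144) to Enho. These are distances over 6 libraries in 2 groups, given as a description.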

How the data were processed

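Libraries of mouse liver RNA (3 HKO, 3 WT) were read from 1 table of the series. Per the file headers, the values the authors deposited are a read count, not normalized, and an FPKM, scaled by gene length and by library total. HISAT2 2.0.4 and StringTie 1.3.0 are the tools, and mm10 and GRCm38.p4 the builds, that the submitters' processing notes name. Their settings, and how reads shared by several genes were assigned, are not given in the sources used here. Coordinates are those of the table. Exons are merged exons of GENCODE M21 on GRCm38.

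Counts were tested in R 4.3.3 with edgeR 4.0.16: filterByExpr (12556 of 34745 genes kept), TMM, and the quasi-likelihood F-test on genotype alone, with Benjamini-Hochberg adjustment over all genes tested and a call below 0.05. The procedure was tested on simulated data. Standard errors are the absolute log2 fold change over the square root of F, and intervals use the moderated degrees of freedom. Single values were compared by two-sided exact permutation tests (SciPy 1.17.1), which cannot go below p = 0.1 here. The alternatives were DESeq2 1.42.0, limma-voom (limma 3.58.1), other scalings and filters, a replicate block, no mitochondrial genes, and each library left out. The replicate numbers did not pair the samples.

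The 8 genes and the lists around them were chosen with earlier results of these data known. Named from each list were the called genes with the largest change, up to 4 a direction, and a set of receptors and partners (Klb, Fgfr1, Fgfr4, Gfral, Gpr19, Lpl, Igf1, Igfals and Ppara). For each hepatokine, the 2 nearest genes with a mean of at least 1 CPM were named. Atf3, Atf4, Ddit3, Ret, Srebf1, Irs2, Dock6, Dnaic1 and single cell type markers were named outside this rule, after their values were seen. Lists were described by counts, with no list test. Angptl8 and Selenop were matched by identifier. Protein sequences were not analysed here, and 1 gene of the lists is not reported here.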

Additional observations from a re-analysis of the deposited data

How the results depend on the processing

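The calls of Fgf21, Igfbp1, Igfbp2 and Enho were kept under all 14 alternatives, with log2 fold changes of 2.74 to 3.17, 1.5 to 2.11, 0.99 to 1.21 and -1.38 to -1.03. Igfbp4 kept its call under 13 of them and lost it without WT 3 (adjusted p = 0.0502). Angptl4 was not called under any (0.22 to 0.74), Gdf15 was called only without HKO 2 (0.79), and Angptl8, which ranged from -0.379 to 0.225, changed sign only without WT 1 (0.225). With one library left out, 3 to 5 of the 8 genes were called higher and 1 lower, the counts over all genes ranged from 722 to 1589 higher and from 682 to 1546 lower (main counts 1516 and 1401), the ratio of summed IGF-binding protein FPKM ranged from 2.07 to 2.31, and the gain in the Igfbp1 share from 8.86 to 15.1 percentage points. These fits have fewer samples, and the cause was not tested further. Without HKO 2, a setting chosen after seeing the data, 4 genes of the IGF axis (2 with all libraries) and 5 other secreted factors (3) were called higher. With the replicate block 4 of the 8 genes were called higher and 1 lower, as without it, and over all genes 1245 higher and 1115 lower. Same-numbered libraries did not deviate together (r = -0.00192, 0.00248 and 0.0717 over genes), so the block carries no pairing. Of the scalings tried, none moved the median of all genes by more than 0.01 on the log2 scale. Fgf21 is limited by depth, with 8 to 12 counts in each WT library.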

Other observations

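Other secreted factors of the liver were called in both directions. Over all genes tested, 12.1% were called higher and 11.2% lower. Of 21 tested genes in the list of these factors, 3 were called higher and 4 lower in HKO. The median log2 fold change of the list was 0.40. With one library left out, 1 (without WT 3) to 5 (without HKO 1 or HKO 2) were called higher and 2 (without HKO 1, HKO 3, WT 2 or WT 3) to 4 lower. By DESeq2, 7 were called higher and 4 lower. Apoa4, an apolipoprotein of triglyceride-rich particles, rose from 783 ± 370 to 2703 ± 589 CPM (log2 fold change 1.79, edgeR adjusted p = 0.0122), a call lost without WT 3 (adjusted p = 0.0506). Rbp4, the retinol carrier of plasma, rose with 1.04 (adjusted p = 0.00617) and the secreted leucine-rich repeat gene Tsku with 1.19 (adjusted p = 0.0140), the latter not without WT 2 or WT 3 (adjusted p = 0.0540 and 0.0538). Hamp, which encodes the iron hormone hepcidin, stood at 54.4, 154 and 46.8 CPM in the libraries HKO 1, 2 and 3, against 202, 398 and 364 CPM in WT 1, 2 and 3. It fell with a log2 fold change of -1.92 (adjusted p = 0.0240), or -2.67 without HKO 2, and its call was lost without HKO 1, HKO 3, WT 2 or WT 3 (adjusted p from 0.0635 to 0.0806). The acute phase gene Orm2 fell with -1.47 (adjusted p = 0.00168) and Manf, a secreted protein of endoplasmic reticulum stress, with -0.87 (adjusted p = 0.00476). Inhba, the activin A subunit gene, fell with -1.32 (adjusted p = 0.0372), a call lost by limma-voom and without any library but WT 1 (adjusted p from 0.0551 to 0.124).

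WT 1 lay at one end of its group for several genes of feeding and fasting, named after their values were seen. It had the highest WT level of Angptl8 (77.3 CPM, against 36.5 and 40.6 CPM in WT 2 and 3), of Srebf1, the lipogenic factor gene induced by insulin (169 CPM, against 73.2 and 90.9 CPM), and of Lpl (86.4 CPM, against 22.9 and 39.0 CPM). It had the lowest WT level of Igfbp1 (36.7 CPM, against 104 and 92.3 CPM), of Angptl4 (71.2 CPM, against 148 and 110 CPM) and of Irs2, an insulin receptor substrate gene (3.28 CPM, against 12.4 and 8.79 CPM). Igfbp2 (199 CPM, against 258 and 223 CPM) and Igfbp4 (727 CPM, against 844 and 779 CPM) were lowest there too. Not all genes went this way. Enho, known to be higher after feeding, was lowest in WT 1 (22.2 CPM, against 31.5 and 26.0 CPM). Fgf21 lay between the others (0.611 CPM, against 0.674 and 0.488 CPM). Gdf15 was highest in WT 1 (22.9 CPM, against 21.3 and 16.8 CPM). How often WT 1 lay at an end over all genes was not counted. With 3 libraries per group, one library at an end of a group cannot be tested.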
